A study of Mus musculus with 9 samples.

Results

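Fatty acid binding proteins are small cytoplasmic proteins that hold long-chain fatty acids, bile acids or related lipids in a barrel-shaped pocket. Each member is known for a tissue: Fabp1 for liver and small intestine, Fabp2 for small intestine, Fabp6 for ileum, Fabp3 for heart and skeletal muscle, Fabp4 for fat cells, Fabp5 for epidermis, Fabp7 for developing brain, Pmp2 for peripheral myelin and Fabp9 for testis. Medullary thymic epithelial cells (mTEC) are known for transcribing many genes of other organs, in part under the regulator Aire, and for showing the products to developing T cells, while cortical thymic epithelial cells (cTEC) support earlier steps of T cell development. These 9 genes were followed here over 3 groups of thymic cells. They were taken by symbol from the array annotation and comprised 16 of the 34958 probe sets with 1 gene symbol and 9 of the 18194 genes measured. The probe set with the highest mean over all arrays stood for its gene, the other 7 are reported beside it, and no member was lost to a filter on low values.

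The study used a ZsGreen (ZsG) reporter mouse for Tslp, which encodes the epithelial cytokine thymic stromal lymphopoietin. A bacterial artificial chromosome with the green fluorescent protein ZsG at the Tslp start codon was the transgene, so the reporter followed Tslp sequences on that chromosome and not the resident Tslp gene. The 3 groups were ZsG plus, ZsG minus mTEC and ZsG minus cTEC, each with 3 Affymetrix arrays and all on the C57BL/6 background, from mice 8 to 20 weeks old, and the labels name no treatment other than the transgene. RNA (5 ng) was amplified with the WT-Ovation Pico system before hybridisation. The labels do not say whether ZsG minus cells came from transgenic or plain mice, which compartment ZsG plus cells came from, or whether replicates were separate animals, so the p-values cover no more than the scatter of these 9 samples, which may be technical. How the cells were sorted is not given in the sources at hand, and the cell type field names keratinocytes for all 9 samples, unlike the titles, which were used. Below, mTEC and cTEC alone stand for the ZsG minus groups of those names. Because these are bulk samples, fewer cells of a type and less RNA per cell cannot be told apart.

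The compartment genes chosen as a check followed the titles, while some other markers did not. Prss16 and Psmb11, proteases of cortical epithelium, had levels of 48742 and 17157 in cTEC, against 2963 and 994 in mTEC and 1173 and 504 in ZsG plus. Aire and Fezf2, regulators of medullary epithelium, had levels of 16990 and 22682 in ZsG plus, 19854 and 19026 in mTEC, and 1973 and 1461 in cTEC. Here a level is the geometric mean of the deposited intensity over the 3 arrays of a group. Of 10 cortical markers, 3 were lower in ZsG plus and 2 lower in mTEC than in cTEC, and of 9 medullary markers 3 were higher in each. Over all genes, 1.14% and 0.0989% were called lower and 0.599% and 0.528% higher. The cortical marker Foxn1 ran the other way, at 2471, 2838 and 1523 in ZsG plus, mTEC and cTEC. Of the medullary markers, Krt5 read 17051, 13137 and 13398, Krt14 2043, 7647 and 2372, and Tnfrsf11a 1028, 1821 and 1140. None of 4 general epithelial markers passed in any comparison, although Epcam, an epithelial adhesion molecule, read 44971, 33275 and 11742 in ZsG plus, mTEC and cTEC. Thymocyte markers summed to 38160 to 54265 on the cTEC arrays, with 2 of 8 genes lower in ZsG plus and 1 lower in mTEC. On the other arrays this sum was 3313 to 8496. Such sums, here and below, add raw intensities, so that the brightest probe sets weigh most. Fibroblast markers summed to 34740 to 53080 in cTEC, 4897 to 7820 in mTEC and 5105 to 25800 in ZsG plus, with 1 of 7 lower in each comparison with cTEC. The part of these cells in the values below was not tested. None of 3 erythroid markers passed in any comparison.

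The arrays also differed in signal and spread. Median intensity was 230.3 to 316.0 in ZsG plus against 365.7 to 423.6 elsewhere, 3' over 5' Gapdh signal, which rises with RNA degradation or short amplification, was 6.71 to 10.6 against 4.55 to 5.97, and the median SD of a gene within its group was 1.30 on the log2 scale in ZsG plus, 0.63 in mTEC and 0.61 in cTEC. The 3' over 5' Actb signal did not set ZsG plus apart, at 0.796 to 1.21 against 0.874 to 1.14 elsewhere. The part of the differences in signal and spread in the results was not tested. Each standard error below pools the scatter of all 3 groups, so that of ZsG plus enters it also for mTEC against cTEC. As a guide to dim signal, 6 bacterial control probe sets read 3.77 to 340.9 over the 9 arrays. Tslp itself read 526, 23.4 and 953 in ZsG plus, 244, 472 and 359 in mTEC, and 264, 88.8 and 576 in cTEC. Its groups overlapped in every comparison.

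Both mTEC and ZsG plus arrays carried more signal than cTEC arrays for most of the family, with Fabp6 and Fabp2, genes known from small intestine, called in both comparisons with cTEC. Fabp6 was 57.3-fold higher in mTEC and 28.0-fold higher in ZsG plus than in cTEC. Fabp2 was 15.6-fold and 9.63-fold higher. In ZsG plus, 4 of the 9 genes rose against cTEC (Fabp2, Fabp4, Fabp6 and Pmp2) at an adjusted p under 0.05 by limma, and in mTEC 3 did (Fabp2, Fabp6 and Fabp7). None fell. The share of all genes called higher was 0.599% for ZsG plus and 0.528% for mTEC, and the share called lower was 1.14% and 0.0989%. The same cTEC arrays served in both comparisons, so the counts are not independent of each other. The median log2 difference of the 9 genes was 2.84 for ZsG plus and 2.78 for mTEC, where the medians of all genes were -0.14 and 0.09.

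**Figure D1:**
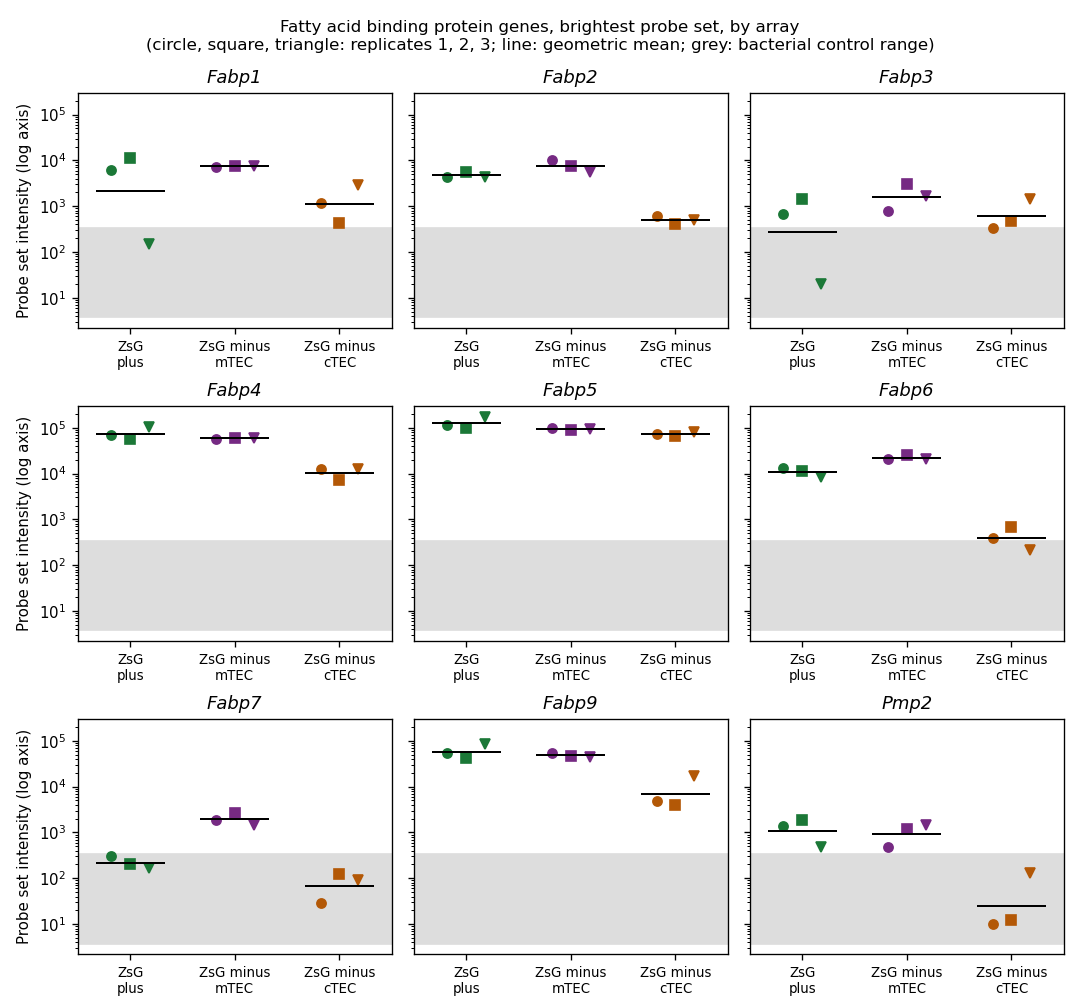
Intensity of the brightest probe set of each gene (log axis) on each of the 9 arrays, with circles, squares and triangles for replicates 1, 2 and 3, a line for the geometric mean of each group, and grey for the span of the 6 bacterial controls (3.77 to 340.9). In Fabp2, Fabp4, Fabp6, Fabp9 and Pmp2 all ZsG plus and ZsG minus mTEC points lie above all ZsG minus cTEC points, whereas replicate 3 of ZsG plus lies far below its group in Fabp1 and Fabp3; heights are not comparable between genes, since probe sets differ in brightness.

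Fabp6 encodes the ileal bile acid binding protein, which carries bile acids across the cells of the lower small intestine. Its probe set, 1450682_at, read 12976, 11538 and 8300 in ZsG plus, 21107, 24956 and 20320 on the mTEC arrays, and 385, 696 and 212 on the cTEC arrays. All mTEC values lay above all ZsG plus values, and no cTEC value came near either group. The value of cTEC replicate 3 lay under the highest bacterial control of its own array (240.6). The folds against cTEC thus rest in part on dim signal. The log2 difference was 5.84 ± 0.59 (SE; adjusted p = 0.0275) for mTEC against cTEC, the smallest p of all 18194 genes in that comparison. For ZsG plus against cTEC it was 4.81 ± 0.59 (adjusted p = 0.0127). ZsG plus lay 1.04 ± 0.59 below mTEC on the log2 scale, a difference that did not pass (adjusted p = 0.477; 95% interval -2.36 to 0.29) although the groups did not overlap. The order of levels was thus mTEC, ZsG plus and cTEC, with only the last set apart by the test.

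Fabp2 encodes the intestinal fatty acid binding protein of enterocytes. Probe set 1418438_at read 4365, 5486 and 4376 in ZsG plus, 10323, 7597 and 5722 in mTEC, and 598, 401 and 490 in cTEC. The values of each group kept to a narrow band, and no group overlapped another. The differences from cTEC were 3.97 ± 0.51 for mTEC (adjusted p = 0.0324) and 3.27 ± 0.51 for ZsG plus (adjusted p = 0.0266) on the log2 scale. Between ZsG plus and mTEC the difference was -0.70 ± 0.51 (adjusted p = 0.572), so the order was the same as for Fabp6.

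Fabp1, the liver-type protein that is also abundant in enterocytes, has 2 probe sets. The brighter, 1448764_a_at, read 6189, 11405 and 152 in ZsG plus, 7329, 7580 and 7555 in mTEC, and 1148, 421 and 2893 in cTEC. The mTEC arrays were nearly equal (SD 0.03 on the log2 scale) and lay above all cTEC arrays, while ZsG plus spread widely (SD 3.37), with replicate 3 inside the bacterial control range. The dimmer probe set read 1658, 1744 and 34.5 in ZsG plus, 7491, 4742 and 2909 in mTEC, and 164, 445 and 1313 in cTEC, with the same array lowest. No Fabp1 comparison passed: the log2 difference was 2.74 ± 1.46 (adjusted p = 0.516) for mTEC against cTEC and 0.98 ± 1.46 (adjusted p = 0.755) for ZsG plus. With only the 6 mTEC and cTEC arrays fitted by limma, their difference was 2.74 ± 0.71 (adjusted p = 0.0991), still not past the threshold. Against mTEC, ZsG plus differed by -1.76 ± 1.46 (adjusted p = 0.617), and by 0.17 with its replicate 3 left out.

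Enterocyte markers summed higher where these genes were higher. The 9 measured markers summed to 27711 to 30421 in ZsG plus, 32530 to 39177 in mTEC and 5065 to 12652 in cTEC. None of the 9 passed in any comparison. In cTEC, Alpi, Lct and Cdx2 stayed in the bacterial control range on all 3 arrays, as did Lct in mTEC. The part of these transcripts in the Fabp results was not tested. Apoa1 and Apoa4, apolipoproteins of the intestine and liver, make up much of the sum: their levels were 14593 and 8061 in mTEC, 5259 and 9693 in ZsG plus, and 1839 and 1588 in cTEC. The Apoa1 difference between mTEC and cTEC was 2.99 ± 0.57 (adjusted p = 0.0585).

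The 250 bases before the transcription start of these 3 genes are shown because the genes share a tissue of known expression and lie on different chromosomes. They come from RefSeq, mouse assembly GRCm38.p6, and the promoter sequences at hand covered 5 of the 9 members (Fabp1, Fabp2, Fabp3, Fabp6 and Fabp7). Each is written 5′ to 3′ on the gene's strand, with capitals for matches to the motifs named after them.
Fabp1, chr6:71199629-71199878, plus strand: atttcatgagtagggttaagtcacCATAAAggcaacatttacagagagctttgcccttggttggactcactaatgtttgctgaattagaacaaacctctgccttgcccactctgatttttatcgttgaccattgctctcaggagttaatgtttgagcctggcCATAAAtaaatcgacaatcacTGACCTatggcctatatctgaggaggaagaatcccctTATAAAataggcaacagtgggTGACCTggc
Fabp2, chr3:122894822-122895071, plus strand: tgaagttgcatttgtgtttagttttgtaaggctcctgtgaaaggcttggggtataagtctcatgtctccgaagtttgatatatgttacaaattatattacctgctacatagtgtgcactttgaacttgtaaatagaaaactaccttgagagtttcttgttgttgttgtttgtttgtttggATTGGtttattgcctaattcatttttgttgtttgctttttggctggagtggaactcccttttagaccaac
Fabp6, chr11:43601563-43601812, minus strand: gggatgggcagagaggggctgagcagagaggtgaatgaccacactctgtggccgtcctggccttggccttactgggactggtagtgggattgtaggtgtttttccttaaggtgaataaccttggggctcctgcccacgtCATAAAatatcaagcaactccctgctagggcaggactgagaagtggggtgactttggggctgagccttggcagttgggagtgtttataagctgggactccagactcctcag
The letters searched were TATAAA on the gene's strand, and on both strands AGGTCA (the core hexamer of nuclear receptors), the direct repeat of that hexamer with 1 base between the copies (the form that PPAR receptors bind), TTTATG (the core of intestinal CDX sites), AGATAA (the core of GATA sites) and CCAAT. The hexamer AGGTCA is contained in the direct repeat. Fabp1 held TATAAA at -30 to -25 from the start, AGGTCA on the opposite strand at -67 and at -9, and TTTATG on the opposite strand at -226 and at -88. Fabp6 held TTTATG on the opposite strand at -111, and Fabp2 held only CCAAT, on the opposite strand at -70. Among 32536 distinct promoters of the same length, 7.55% held TATAAA, 14.0% AGGTCA, 0.0338% the direct repeat, 10.8% TTTATG, 9.97% AGATAA and 33.8% CCAAT. The Fabp2 sequence had 35.6% G and C, against 42.8% for Fabp1, 54.8% for Fabp6 and a median of 52.4% over all promoters. A match describes the letters only.

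Fabp4, the fatty acid binding protein of fat cells that is also made by macrophages and endothelium, has 4 probe sets. The brightest, 1451263_a_at, read 69374, 56864 and 104758 in ZsG plus, 55812, 59320 and 61054 in mTEC, and 12469, 7284 and 12289 in cTEC. All cTEC values lay below the rest, and ZsG plus overlapped mTEC. Fabp4 was 7.18-fold higher in ZsG plus than in cTEC (log2 difference 2.84 ± 0.53, adjusted p = 0.0396), and 5.66-fold higher in mTEC (2.50 ± 0.53, adjusted p = 0.0797, not past the threshold). ZsG plus and mTEC differed by 0.34 ± 0.53 (adjusted p = 0.799), with a 95% interval of -0.84 to 1.53. Under quantile normalization the difference of ZsG plus from cTEC was 2.41 ± 0.49 (adjusted p = 0.0537), and the call was lost. With only the 6 arrays compared fitted by limma, the differences from cTEC were 2.84 ± 0.64 in ZsG plus (adjusted p = 0.146) and 2.50 ± 0.38 in mTEC (adjusted p = 0.0314).

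The other 3 Fabp4 probe sets gave the same direction against cTEC. The second brightest read 42155, 28326 and 48634 in ZsG plus, 30306, 33745 and 29555 in mTEC, and 3503, 2446 and 4031 in cTEC. Another read 534, 9097 and 1172, then 2795, 2513 and 3659, then 422, 261 and 364 in the same order of groups. The dimmest read 1228, 2238 and 149 in ZsG plus, 480, 406 and 988 in mTEC, and 190, 133 and 160 in cTEC, so that here replicate 3 of ZsG plus fell among the cTEC values.

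Markers of the other cell types known to make Fabp4 gave few calls. Adipocyte markers summed to 577 to 4870 in ZsG plus, 1409 to 1808 in mTEC and 497 to 913 in cTEC, with Lep, Cidec and Lipe in the bacterial control range on all ZsG plus arrays and none of 5 genes past the threshold. Endothelial markers summed to 1957 to 5678, 2798 to 3439 and 3509 to 3702 in the same order, and none of 10 passed. Macrophage and dendritic cell markers summed to 34691 to 103983 in ZsG plus, 38334 to 53491 in mTEC and 16692 to 52896 in cTEC. Of those 10, 1 was lower in mTEC than in cTEC and none passed in the ZsG plus comparisons. Over all genes, 0.0989% were called lower and 0.528% higher in mTEC than in cTEC. For ZsG plus against cTEC these shares were 1.14% and 0.599%, and against mTEC 0.22% were called in either direction.

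Fabp5, the epidermal fatty acid binding protein, showed the smallest differences of the family from cTEC. The brighter of its 2 probe sets, 1416021_a_at, read 115569, 100116 and 172525 in ZsG plus, 98520, 87930 and 92459 in mTEC, and 73612, 64942 and 82180 in cTEC. The 3 groups formed steps without overlap, yet the log2 differences were only 0.78 ± 0.50 (ZsG plus against cTEC, adjusted p = 0.433), 0.34 ± 0.50 (mTEC against cTEC, adjusted p = 0.902) and 0.44 ± 0.50 (ZsG plus against mTEC, adjusted p = 0.723). For ZsG plus against cTEC the 95% interval ran from -0.34 to 1.90, which leaves room for a difference of up to 3.74-fold. The second probe set read 66226, 39899 and 82653 in ZsG plus, 52778, 57450 and 54390 in mTEC, and 50536, 62591 and 61808 in cTEC, with all groups overlapping.

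Keratinocyte markers, which include cornified envelope genes known from medullary epithelium as well as skin, gave calls against cTEC where Fabp5 gave none. Their sum was 82025 to 139725 in ZsG plus, 60620 to 79395 in mTEC and 5416 to 10372 in cTEC. Of the 8 genes, 5 rose in ZsG plus and 4 in mTEC against cTEC, and none passed between ZsG plus and mTEC. Over all genes, 0.599% and 0.528% were called higher against cTEC. Between ZsG plus and mTEC 0.22% were called in either direction. Ivl, Lor and Flg lay in the bacterial control range on all cTEC arrays.

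Fabp7, the brain-type protein of radial glia and astrocytes, had its highest values in mTEC and low values in both other groups. Probe set 1450779_at read 302, 209 and 167 in ZsG plus, 1873, 2613 and 1453 in mTEC, and 29.2, 124 and 92.1 in cTEC. All ZsG plus and all cTEC values lay within the bacterial control range, and all mTEC values lay well above it. Of the ZsG plus values only replicate 1 exceeded the highest bacterial control of its own array (143.7). mTEC exceeded cTEC by 4.79 ± 0.67 on the log2 scale (adjusted p = 0.0324). Since the cTEC arrays were each under their own highest bacterial control, the difference is better given as at least 11.8-fold, taking that control as the lower level. ZsG plus lay 3.13 ± 0.67 below mTEC, without overlap but short of the threshold (adjusted p = 0.107). With intensities under 100 raised to 100 before log2 the adjusted p was 0.0116, and with 50 added to each intensity it was 0.0455, so this call depends on how dim values are treated. The order of ZsG plus over cTEC (1.66 ± 0.67, adjusted p = 0.226) rests on values within the control range.

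The promoter of Fabp7, called in mTEC but dim in ZsG plus, is shown beside those of the intestinal genes.
Fabp7, chr10:57784673-57784922, plus strand: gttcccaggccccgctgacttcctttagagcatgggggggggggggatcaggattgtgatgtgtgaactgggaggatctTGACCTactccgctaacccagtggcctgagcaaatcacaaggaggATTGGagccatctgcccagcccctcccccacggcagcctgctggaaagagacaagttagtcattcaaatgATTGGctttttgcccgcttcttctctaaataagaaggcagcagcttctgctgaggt
It held AGGTCA on the opposite strand at -171 and CCAAT on the opposite strand at -126 and at -56, with none of the other motifs, and 54.8% G and C.

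Pmp2 encodes the myelin P2 protein, the family member of Schwann cells. Probe set 1458193_at read 1383, 1911 and 472 in ZsG plus, 481, 1164 and 1442 in mTEC, and 10.1, 12.6 and 128 in cTEC. All cTEC values lay within the bacterial control range and below every other value, and the other groups overlapped. The log2 difference from cTEC was 5.41 ± 1.04 for ZsG plus (adjusted p = 0.0417) and 5.20 ± 1.04 for mTEC (adjusted p = 0.0681). Set against the highest bacterial control of each cTEC array, these are at least 6.6-fold and at least 5.7-fold. With intensities under 100 raised to 100, the log2 differences were 3.31 (adjusted p = 0.03) and 3.10 (adjusted p = 0.0509). ZsG plus and mTEC differed by 0.21 ± 1.04 (adjusted p = 0.948).

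No glial marker passed beside Pmp2 or Fabp7, although the sum for astrocytes and radial glia was higher in mTEC than in cTEC without overlap. Schwann cell and myelin markers summed to 9662 to 38676 in ZsG plus, 10865 to 14850 in mTEC and 12635 to 15654 in cTEC, and none of 6 measured genes passed in any comparison. S100b lay in the bacterial control range on all ZsG plus and all cTEC arrays, and Sox10 on all mTEC and all cTEC arrays. Markers of astrocytes and radial glia summed to 1964 to 8010, 5345 to 6157 and 3085 to 3848 in ZsG plus, mTEC and cTEC. The median log2 difference of those 6 genes between mTEC and cTEC was 0.85, where all genes had 0.09, and their part in the Fabp7 difference was not tested. None of the 6 passed. Without overlap, 2 of them lay higher and 1, Gfap, lay lower in mTEC than in cTEC. Over all genes these shares were 16.6% and 11.8%. Gfap lay in the control range on all ZsG plus and mTEC arrays and above it in cTEC, with levels of 45.8, 141 and 466 in ZsG plus, mTEC and cTEC.

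Fabp9, the testis member, which lies beside Fabp4, has 2 probe sets. The brighter, 1417076_at, read 54076, 42162 and 83265 in ZsG plus, 53199, 47000 and 43708 in mTEC, and 4962, 4056 and 16926 in cTEC. The cTEC values were the lowest, with replicate 3 well above the other cTEC arrays. Against cTEC the log2 difference was 3.04 ± 0.66 for ZsG plus (adjusted p = 0.0572) and 2.78 ± 0.66 for mTEC (adjusted p = 0.105), and neither passed. Under 5 other processing settings the ZsG plus difference did pass, with adjusted p-values from 0.0237 to 0.0458, so this call depends on the processing. Its second probe set read 1428, 338 and 2020 in ZsG plus, 1681, 1153 and 1686 in mTEC, and 356, 151 and 121 in cTEC. In it the mTEC values again lay above all cTEC values, while replicate 2 of ZsG plus fell among them. Whether the Fabp9 probes also bind transcripts of Fabp4 or another relative was not tested. Spermatid markers summed to 5698 to 17684 in ZsG plus, 2408 to 3386 in mTEC and 2534 to 3864 in cTEC, with none of 8 past the threshold and Tnp1, Odf1 and Akap4 in the control range on all 9 arrays.

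Fabp3, the heart and muscle member, did not separate the groups. The brighter of its 2 probe sets, 1416023_at, read 686, 1470 and 20.4 in ZsG plus, 802, 3033 and 1648 in mTEC, and 338, 478 and 1473 in cTEC. Replicate 3 of ZsG plus was the lowest array, as for Fabp1, and all groups overlapped. Fabp3 was the only member with a lower level in ZsG plus than in cTEC (log2 difference -1.18 ± 1.44, adjusted p = 0.697), and with that array left out the difference was 0.70. The dimmer probe set read 507, 525 and 291, then 137, 455 and 395, then 216, 299 and 360 in ZsG plus, mTEC and cTEC. Muscle markers summed to 36819 to 47293 in ZsG plus, 15148 to 19978 in mTEC and 6022 to 12200 in cTEC, with none of 9 genes past the threshold and Myh6 in the control range on all 9 arrays. Most of this sum came from Tnnt2, with levels of 30576, 12748 and 7318 in ZsG plus, mTEC and cTEC.

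**Figure D2:**
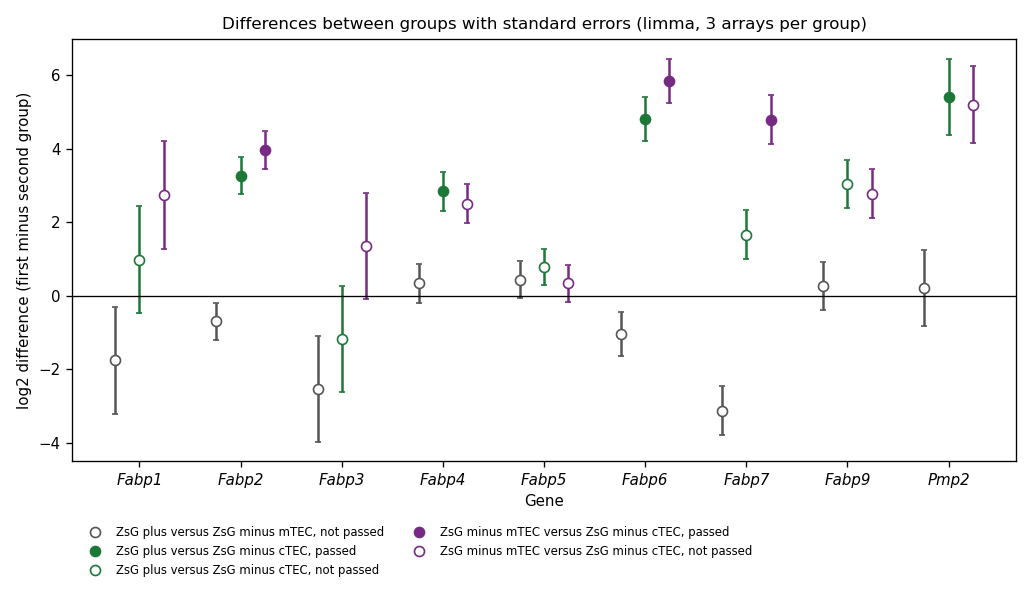
log2 difference (points) with its standard error (bars) of each gene in the 3 comparisons, from the limma fit of all 9 arrays with 3 per group; filled points have an adjusted p under 0.05. The filled points are Fabp2, Fabp4, Fabp6 and Pmp2 for ZsG plus against ZsG minus cTEC, and Fabp2, Fabp6 and Fabp7 for ZsG minus mTEC against ZsG minus cTEC, with none for ZsG plus against ZsG minus mTEC.

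Between ZsG plus and mTEC no family member passed by limma, where 0.22% of all genes did in either direction. Adjusted p-values ran from 0.107 (Fabp7) to 0.948 (Pmp2), and Fabp7 was the only member with an unadjusted p under 0.05, lower in ZsG plus as were 10.2% of all genes. The groups did not overlap for Fabp2, Fabp6 and Fabp7, lower in ZsG plus, and for Fabp5, higher in ZsG plus. Among all genes, 12.3% were lower and 5.77% higher without overlap. The median difference of the 9 genes was -0.70, beside a median of -0.33 over all genes. The signs of Fabp4, Fabp5 and Fabp9 (0.34, 0.44 and 0.27) turned to -0.11, -0.26 and -0.11 under quantile normalization, so no direction can be given for them.

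Counted by overlap alone, 7 of 9 genes lay higher in ZsG plus than in cTEC on every array, and 8 of 9 did in mTEC. Over all genes these shares were 9.9% and 16.6%. The 7 include Fabp7, whose ZsG plus and cTEC values all lay within the bacterial control range. They also include Fabp5, whose log2 difference fell from 0.78 to 0.03 under quantile normalization and whose second probe set overlapped in all groups. No member lay lower without overlap in either comparison, where 13.4% and 11.8% of all genes did. Each member called against cTEC kept its direction under all 19 alternatives tried, among them 2 other scalings. Several of the 19 could not change a direction, since they leave the difference itself as it was. The fit of only the 6 arrays compared and the replicate block are such cases, with Fabp6 in ZsG plus at 4.81 in both, as reported. The calls themselves changed when 1 array was left out, in the family as over all genes. Without cTEC replicate 1 or 2 no member passed in either comparison, and none of the 18194 genes did. Without replicate 3 only Pmp2 did, in ZsG plus, where 23 of all genes were called, against 0 in mTEC. Leaving out any 1 of the mTEC arrays left only Fabp6 in ZsG plus against cTEC, where 51 to 81 of all genes were called. In mTEC against cTEC it left no member and no gene at all. Leaving out ZsG plus replicate 1 ended the Pmp2 call in ZsG plus, and leaving out replicate 2 ended it too while Fabp9 passed. Fitting only the 6 arrays compared left none of the 4 calls in ZsG plus, where no gene at all passed. It gave 4 in mTEC, where 548 of all genes passed. Other settings added calls: Fabp9 passed in ZsG plus with the mean over probe sets, without the dimmest 40% of genes, with arrays centred on their median, with a floor of 100 and with an offset of 50, which made 5 calls each.

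**Figure D3:**
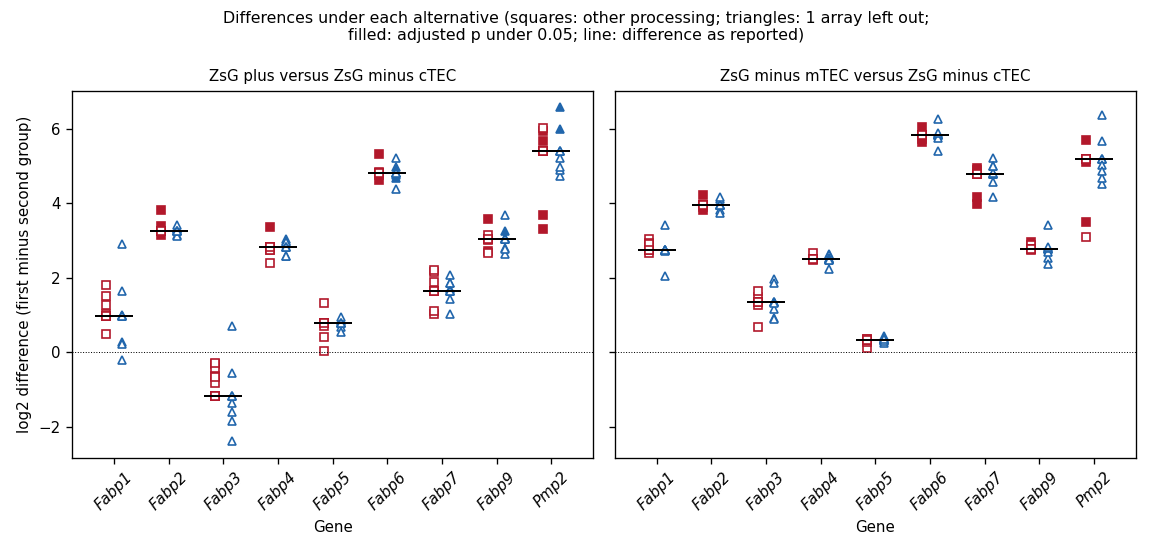
log2 difference of each gene against ZsG minus cTEC under each alternative, with squares for other processing, triangles for 1 array left out, filled symbols for an adjusted p under 0.05 and a line for the value as reported. Fabp6 ranges from 4.38 to 5.34 for ZsG plus and from 5.41 to 6.27 for ZsG minus mTEC, whereas Fabp3 in ZsG plus crosses 0.

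The probe sets of Fabp4 and Fabp9 gave the same sign against cTEC, and those of Fabp3 did not. For Fabp4 all 4 and for Fabp9 both were higher in ZsG plus and in mTEC than in cTEC, whereas the dimmer probe sets of Fabp1, Fabp3 and Fabp5 were at or near 0 in at least 1 of these comparisons. The Fabp3 probe sets opposed each other in ZsG plus, at -1.18 and 0.58 against cTEC and at -2.53 and 0.55 against mTEC, and none of these differences passed. Fabp2, Fabp6, Fabp7 and Pmp2 each have a single probe set, so their differences have no second reading.

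**Figure D4:**
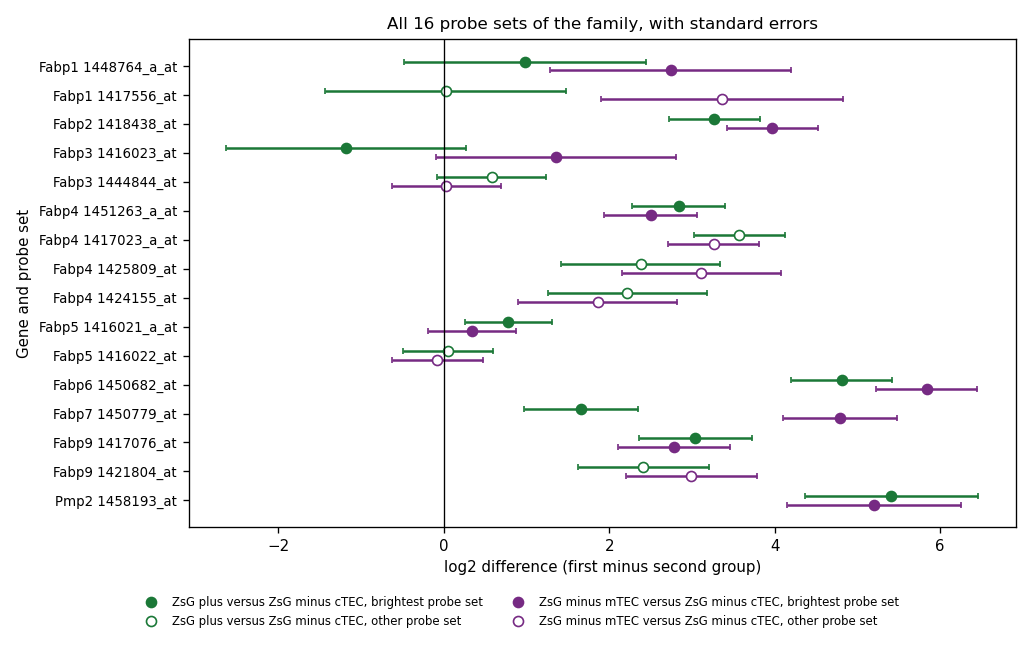
log2 difference with its standard error for all 16 probe sets of the family against ZsG minus cTEC, with filled points for the brightest probe set of a gene and open points for the others. The 4 probe sets of Fabp4 and both of Fabp9 lie to the right of 0 in both comparisons, while the second probe sets of Fabp3 and Fabp5 lie near 0 in ZsG minus mTEC.

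On the chromosome, Fabp5, Pmp2, Fabp9, Fabp4 and Fabp12 follow each other on chromosome 3 in RefSeq order, flanked by Pag1 and Impa1. Pmp2, Fabp9 and Fabp4 were higher in ZsG plus and in mTEC than in cTEC on every array. Fabp12, a retinal and testis gene that is not among the 9, read 618, 2116 and 683 in ZsG plus, 1577, 1293 and 1357 in mTEC, and 404, 352 and 787 in cTEC. Its mTEC values lay above the cTEC values (1.54 ± 0.65, adjusted p = 0.372), and ZsG plus overlapped both. The flanking genes did not pass in any comparison: Pag1 read 398, 335 and 405 and Impa1 1628, 6029 and 3461 in ZsG plus, mTEC and cTEC. Fabp2 lies elsewhere on chromosome 3, Fabp3 on chromosome 4, Fabp1 on 6, Fabp7 on 10 and Fabp6 on 11. The neighbours of Fabp6, Ccnjl and Pwwp2a, and of Fabp2, Pde5a and Usp53, did not pass in any comparison either.

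The genes whose log2 intensity followed a called member most closely over the 9 arrays were picked by Pearson's r among 13568 genes. The 9 points share their 3 groups and no p is given. Fabp6 was followed by Gja4 (r = 0.996), a gap junction protein, Dppa3 (0.978), a germ cell gene, and Calcb (0.974), a neuropeptide gene, and its 100th gene still had 0.910. Fabp2 was followed by Dclk3 (0.978), Ccl20 (0.977), a chemokine, and Dsg1a (0.974), a desmosome cadherin of epidermis. The nearest to Fabp4 were Reg3g (0.992), an intestinal antimicrobial lectin, Ahcyl2 (0.990) and Epcam (0.990). Pmp2 was nearest to the epidermal keratins Krt16 (0.985) and Krt77 (0.980) and to D17H6S56E-5 (0.973). Fabp7 was nearest to Krt71 (0.971), a hair follicle keratin, Tbx20 (0.969), a heart transcription factor, and Retnla (0.968).

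The wider fatty acid pathway gave 1 call. Of 102 measured genes in 9 lists, none passed between ZsG plus and mTEC or between mTEC and cTEC by limma, and 1 was lower in ZsG plus than in cTEC, where 1.14% of all genes were, so the count is near the background. Between mTEC and cTEC 0.528% of all genes were called higher and 0.0989% lower, and between ZsG plus and mTEC 0.22% were called in either direction. Their median differences were -0.37, 0.46 and 0.33 in that order of comparisons. The gene called was Fads1, a fatty acid desaturase. It read 247, 43.1 and 189 in ZsG plus, 169, 810 and 545 in mTEC, and 2328, 2659 and 2615 in cTEC. The cTEC values were close together and above all others, and all ZsG plus values lay within the bacterial control range. The fitted log2 difference for ZsG plus was -4.32 ± 0.83 (adjusted p = 0.0417). Its size rests on these dim values, of which only replicate 1 exceeded the highest bacterial control of its own array (143.7). With cTEC replicate 1 or 2 left out no gene at all passed in that comparison.

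By role, none of 9 fatty acid uptake genes passed (medians 0.38 in ZsG plus and 0.69 in mTEC, each against cTEC), with levels of 5609, 3593 and 6154 for Lpl, a lipase at the vessel wall, in ZsG plus, mTEC and cTEC. Slc27a1, a fatty acid transporter, read 4349, 2669 and 3345. Acyl-CoA synthetases, which activate fatty acids, numbered 8 with medians of 0.01 and -0.30, and their bright members Acsl5 (9677, 10665 and 11249) and Acsl3 (5769, 6133 and 3812) did not pass either.

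The PPAR receptors, nuclear receptors that take up ligands from fatty acid binding proteins, gave no calls. Ppara read 528, 148 and 127, Pparg 69.4, 377 and 137, and Ppard 729, 430 and 483 in ZsG plus, mTEC and cTEC. None of the 9 receptors and partners passed (medians 0.31 and 0.01 against cTEC), among them the coactivators Ncoa1 (1126, 1222 and 1630) and Ppargc1b (1227, 1002 and 992). None of 11 PPAR target genes passed (medians -0.12 and -0.23), with Acot2, a mitochondrial thioesterase, at 4861, 6969 and 9836 and Pdk4, a kinase of pyruvate dehydrogenase, at 5322, 5117 and 3375.

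The enzymes of fatty acid use gave no call other than Fads1. The 13 genes of fatty acid oxidation had medians of -0.42 and 0.05 against cTEC, with Hadh at 14011, 22330 and 15489 and Hadha at 7118, 10072 and 9520 in ZsG plus, mTEC and cTEC. The 13 lipid droplet and lipolysis genes had medians of 0.03 and -0.28, with Dgat1, which makes triglyceride, at 3545, 2159 and 4628 and the lipase Pnpla2 at 2933, 4498 and 2221. The 14 genes of synthesis and desaturation had medians of 0.23 and 0.51, with the elongase Elovl5 at 18199, 14787 and 15716 and the desaturase Scd1 at 13644, 12636 and 4772.

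The lists nearest to the family in kind gave no calls and had medians above 0 against cTEC. Of 10 related retinoid and lipid binding proteins, 7 lay higher in mTEC than in cTEC on every array (16.6% of all genes did), with a median of 1.85. In ZsG plus 2 did (9.9% of all genes), with a median of 0.75. Dbi, which binds acyl-CoA, read 13847, 24379 and 8675, and Scp2, a sterol carrier, 5636, 4681 and 5302. Crabp1 and Crabp2, retinoic acid binding proteins named after their values were seen, read 5365 and 3435 in mTEC and 97.5 and 209 in cTEC, and neither passed (adjusted p = 0.0797 and 0.238). Of 15 genes of intestinal lipid handling, 10 lay higher without overlap in mTEC (median 1.80) and 3 in ZsG plus (median 1.13), beside the same shares of all genes, and none passed. Gata6, a transcription factor of the gut, lay lower without overlap in both, at 134, 192 and 653 in ZsG plus, mTEC and cTEC. That list shares Apoa1 and Apoa4 with the enterocyte markers.

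**Figure D5:**
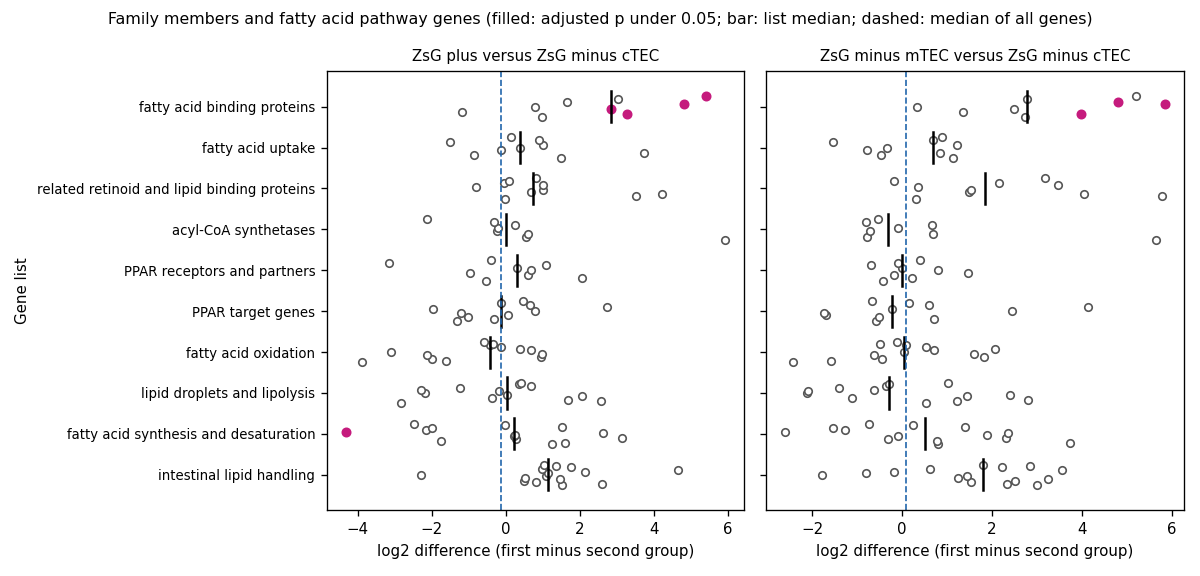
log2 difference of each gene of the family and of 9 fatty acid pathway lists against ZsG minus cTEC (points; filled for an adjusted p under 0.05), with a bar for the median of each list and a dashed line for the median of all genes. The family medians (2.84 for ZsG plus, 2.78 for ZsG minus mTEC) stand to the right of the list medians, and Fads1 is the only filled point outside the family.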

How the data were processed

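The authors deposited 1 linear intensity per probe set and array. Their software is not given in the sources at hand. Each column had a mean of 1250 once 2% was trimmed from each end, so a common trimmed mean had been set before deposit. The deposited intensities were converted to log2 without an offset. Symbols came from the array annotation: 34958 of 45101 probe sets had 1 symbol, 932 several and 9211 none. Groups, taken from the titles, were tested by limma 3.58.1 under R 4.3.3 (lmFit and eBayes, 1 coefficient per group over all 9 arrays, 6 residual and 3.28 prior degrees of freedom), two-sided, with Benjamini-Hochberg adjustment over 18194 genes and a threshold of 0.05. Errors after ± are standard errors. The number of arrays limits the precision. The members, gene lists and tests were chosen with earlier results of these data known. All members are named with every probe set. From each list, up to 4 called genes per direction and the 2 brightest others are named, and for likeness the 3 genes of highest r with a level of at least 200 in a group. Some further genes are named outside this rule, among them Ppara, Ppard, Pparg, Crabp1, Crabp2, Gata6 and single cell type markers. A fold against a group below its arrays' highest bacterial control used that control. The steps were tested on simulated data.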

Additional observations from a re-analysis of the deposited data

How the results depend on the processing

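Changing 1 choice at a time moved the counts of calls more than the differences themselves, and the number of arrays limits both. Some choices, such as the replicate block, leave each difference unchanged by design and alter only its error. For ZsG plus versus ZsG minus mTEC the 40 genes called became 82 with every probe set tested, 15 with quantile normalization, 3 with arrays centred on their median, 202 with a floor of 100 and 101 with an offset of 50. They became 0 with only the 6 arrays compared, 0 with array weights and 0 with the replicate block, where 1785, 1705 and 2320 genes had an unadjusted p under 0.05 in limma. Leaving out 1 array gave 0 to 230 genes. For ZsG plus versus ZsG minus cTEC the 317 genes became 536 with every probe set, 496 with the mean over probe sets, 504 without the dimmest 40%, 862 with the floor, 660 with the offset, 0 with only the 6 arrays (2704 unadjusted), 37 with array weights and 16 with the replicate block, and 0 to 735 with 1 array left out. Between mTEC and cTEC (both ZsG minus) the 114 genes became 43, 216 and 176 with every probe set, the mean and the filter, 178 with quantile normalization, 71 with centring, 425 with the floor, 334 with the offset, 548 with only the 6 arrays, 1220 with array weights and 0 with the replicate block (2172 unadjusted), and 0 to 304 with 1 array left out. The median of all genes moved from -0.33, -0.14 and 0.09 to -0.07, 0.11 and 0.09 with quantile normalization and to 0.21, 0.40 and 0.10 with centring, in the same order of comparisons. The share of calls that were higher moved from 7.50% and 34.4% to 26.7% and 53.2% with quantile normalization and to 33.3% and 63.6% with centring in the ZsG plus comparisons.

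Of the family, the 0 calls between ZsG plus and ZsG minus mTEC became 1 (Fabp7) with the floor and 1 with the offset, and stayed 0 with any 1 array left out. The 4 calls in ZsG plus versus ZsG minus cTEC became 5, with Fabp9 added, with the mean over probe sets, the filter, the centring, the floor and the offset, 0 with only the 6 arrays, 1 with array weights (Fabp6) and 0 with the replicate block, and 0 to 4 with 1 array left out. The 3 calls in ZsG minus mTEC versus ZsG minus cTEC became 5 with the mean over probe sets, 5 with the filter, 6 with the offset, 6 with array weights and 0 with the replicate block, and 0 to 4 with 1 array left out. Same-numbered arrays of different groups did not deviate together (r from -0.015 to 0.013). Scatter of single arrays could hide a shared source, so this does not settle whether the numbers pair the samples. Differences that turned sign, none of them called, were Fabp4 (-0.11), Fabp5 (-0.26) and Fabp9 (-0.11) with quantile normalization and Fabp9 (-0.16) with the mean over probe sets, all between ZsG plus and ZsG minus mTEC. In that comparison, leaving out 1 array gave -2.95 to 0.17 for Fabp1, -0.00187 to 0.49 for Fabp9 (0.17 and -0.00187 without ZsG plus replicate 3) and -0.27 to 0.80 for Pmp2 (-0.20 without ZsG plus replicate 2). In ZsG plus versus ZsG minus cTEC it gave -0.21 to 2.91 for Fabp1 (-0.21 without ZsG plus replicate 2) and -2.39 to 0.70 for Fabp3. The cause was not tested. Of 486 results for the pathway lists, 443 stayed within their bounds and 43 moved. As reported, these lists held only 1 call, so most had no call to lose, and this tally does not show stability.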
